A study of Mus musculus with 3 samples.

Results

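Monocytes were picked out of single-cell RNA libraries of sorted mouse brain myeloid cells by their own transcripts. A barcode with at least 500 unique molecular identifiers (UMIs, each standing for 1 captured RNA molecule) counted as a monocyte when it held at least 3 of 10 genes with at least 6 UMIs in sum. The genes were Plac8, S100a4, Ms4a4c, Ccr2, Ly6c2, Fn1, Napsa, Ace, Treml4 and Ear2. The neutrophil genes S100a8 and S100a9 had to make up under 1% of its UMIs, and the microglial genes P2ry12, Tmem119 and Sparc at most 2 UMIs together. The rule took 113 of 11264 barcodes (1%). The members were thus chosen by the measured UMIs of these genes, so their levels are given as a description and no test rests on them.

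The cells had been sorted for CD11b and CD45 from digested brain tissue and run on droplets. The groups were 2 wild type (WT) libraries from adult mice and 1 library from a mouse that lacks MHC class II and has almost no CD4 T cells; the labels name neither the class II allele nor this animal's age. The study asked about microglia, and monocytes were a minor class in the same sort. The deficient group had 1 animal, so its spread was not measured.

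Monocytes are made in the bone marrow and travel in the blood. Classical monocytes carry Ly6C and the chemokine receptor CCR2 and enter inflamed tissue, where they can become macrophages or antigen-presenting cells. Non-classical monocytes arise from classical ones with the transcription factor NR4A1, lose Ly6C and CCR2, and patrol the inner wall of vessels. In a digested brain, monocytes can come from vessels, meninges, choroid plexus or tissue, and these sources cannot be told apart here.

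Members numbered 48 of 4340 barcodes in WT 1, which is 1.11% (exact Clopper-Pearson 95% interval 0.817 to 1.46). In WT 2 they numbered 44 of 4667, or 0.943% (0.686 to 1.26), and in the deficient library 21 of 2257, or 0.930% (0.577 to 1.42). All 3 intervals overlap, and they cover counting error only. The members held 344833, 308157 and 82899 UMIs, with median depths of 7133, 7530 and 2544 UMIs in WT 1, WT 2 and the deficient library. At the lower limit of the rule genes, 2, 1 and 0 members had 6 or 7 UMIs, and no barcode that passed the other criteria had 4 or 5. At the microglial limit, 10, 13 and 0 members held exactly 2 UMIs of those genes, and 4, 1 and 0 barcodes left out for that reason held 3 or 4. The highest neutrophil share in a member was 0.248%, and the lowest in a barcode left out for that reason was 1.46%. The libraries shared 30, 19 and 13 barcode sequences pair by pair, none with identical counts. The table of the deficient library lists almost no gene seen in only a few cells, so a gene missing from it is below a limit and was not measured as 0.

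Members were divided by the genes that separate the monocyte types: Ly6c2 with Ccr2 on the classical side, and Ace, Treml4 and Ear2 on the non-classical side. A member went to the side with more UMIs, at least 2. This placed 82 members on the Ly6c2/Ccr2 side and 27 on the Ace/Treml4/Ear2 side, and left 4 on neither. At least 2 UMIs of both sides were found in 12 of the 113 members. No doublet caller was run.

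**Figure D1:**
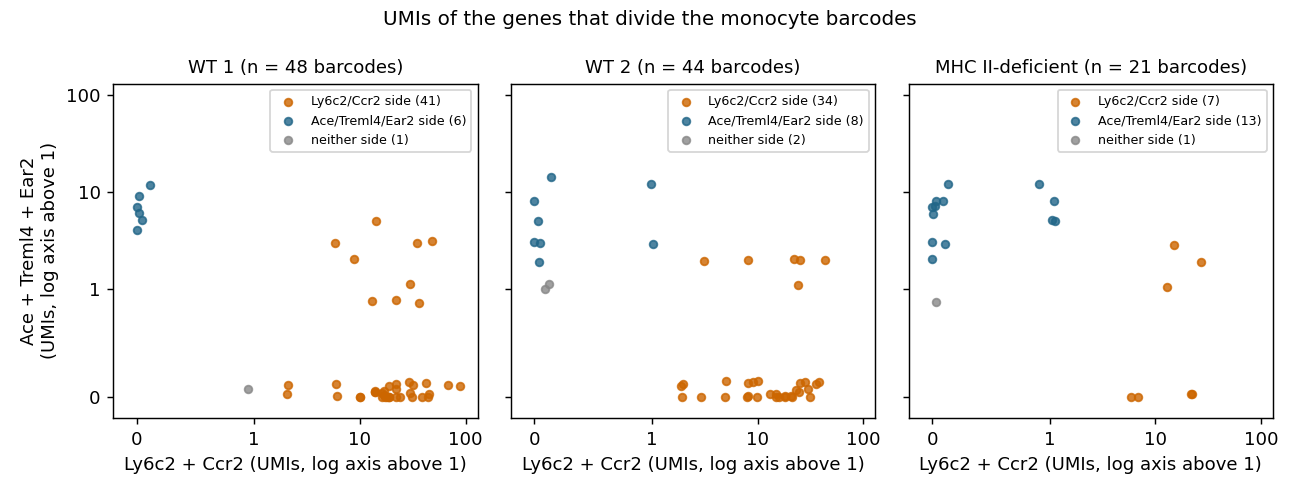
Each point is 1 monocyte barcode, with its UMIs of Ly6c2 and Ccr2 on the x axis and of Ace, Treml4 and Ear2 on the y axis (both log above 1, points spread slightly), in 1 panel per library. Most WT points lie along the x axis (41 and 34 barcodes on that side), while 13 of the 21 barcodes of the deficient library lie on the Ace/Treml4/Ear2 side.

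The mix of the sides differed between the libraries. The Ly6c2/Ccr2 side held 41 of 47 assigned members in WT 1, a share of 87.2% (exact 95% interval 74.3 to 95.2). It held 34 of 42 in WT 2, or 81.0% (65.9 to 91.4), and 7 of 20 in the deficient library, or 35.0% (15.4 to 59.2). The interval of the deficient library did not reach those of the WT libraries, but it covers counting error only, and with 2 libraries against 1 no permutation test of a share can pass 0.05. Without members holding at least 2 UMIs of markers of other lineages, the share was 81.2% (54.4 to 96.0) in WT 1, 60.0% (32.3 to 83.7) in WT 2 and 23.5% (6.81 to 49.9) in the deficient library, whose interval then overlapped that of WT 2. Over all barcodes, the Ly6c2/Ccr2 side made up 0.945% and 0.729% in WT 1 and WT 2 and 0.310% in the deficient library. The Ace/Treml4/Ear2 side made up 0.138%, 0.171% and 0.576%. Exact 95% intervals in WT 1, WT 2 and the deficient library were 0.679 to 1.28, 0.505 to 1.02 and 0.125 to 0.638% for the first side. For the second they were 0.0508 to 0.301, 0.0740 to 0.337 and 0.307 to 0.983%. The deficient library was thus lowest for the first side and highest for the second, but its intervals overlapped those of WT 2 for both. Neither change alone is settled by these counts.

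Depth moved with the sides. Median depths on the Ly6c2/Ccr2 side were 7239, 7735.5 and 6566 UMIs in WT 1, WT 2 and the deficient library, against 4015, 3453 and 2371 UMIs on the other side. With every barcode thinned to 1000 UMIs, fewer met the rule, and 45, 28 and 17 members were left. The classical side held 33 of 37 assigned members in WT 1, or 89.2% (exact interval 74.6 to 97.0). It held 17 of 20 in WT 2, or 85.0% (62.1 to 96.8), and 3 of 14 in the deficient library, or 21.4% (4.66 to 50.8). The share thus stayed lower in the deficient library, but in a smaller set of members and with 3 barcodes on its classical side. The part of depth in the shares of the full set was not tested. The neutrophil share of barcodes also differed, at 7.14%, 3.30% and 0.798%. Its part in the monocyte shares was not tested.

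**Figure D2:**
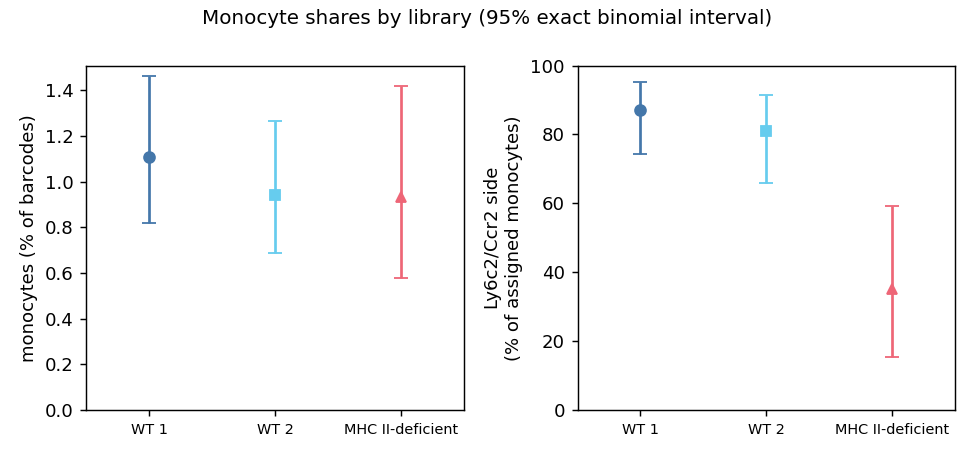
Points give monocytes as a percentage of barcodes (left) and the Ly6c2/Ccr2 side as a percentage of assigned monocytes (right) in each library, with exact 95% binomial intervals as bars. The total share is near 1% in all 3 libraries, and on the right the deficient library, at 35.0%, lies below WT 1 at 87.2% and WT 2 at 81.0%.

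The genes that made the rule show how the sides are built. Levels are UMIs summed over the barcodes of a side and scaled to 1000000 (counts per 1000000, CPM). Ly6c2, a small surface protein anchored to the membrane by a lipid, stood at 1923, 1046 and 1206 CPM on the Ly6c2/Ccr2 side of WT 1, WT 2 and the deficient library and at 0, 32.3 and 27.8 CPM on the other side. Ccr2, the receptor that draws monocytes out of the marrow and into tissue, stood at 1222, 1053 and 1250 CPM against 0, 32.3 and 83.3 CPM. Both genes were therefore nearly confined to 1 side by construction.

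Of the non-classical genes, Ace, the angiotensin-converting enzyme, stood at 613, 581 and 139 CPM on the Ace/Treml4/Ear2 side of WT 1, WT 2 and the deficient library. Ear2, an eosinophil-type ribonuclease, stood at 899, 645 and 1721 CPM there, and Treml4, a receptor of the TREM family, at 245, 387 and 527 CPM. In the deficient library this side was thus lower in Ace and higher in Ear2 than in either WT library.

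Plac8 and Napsa marked both sides. Plac8 stood at 3447, 2750 and 5547 CPM on the Ly6c2/Ccr2 side and at 2862, 2130 and 4773 CPM on the other. Napsa, an aspartic protease, stood at 812, 814 and 680 CPM against 1267, 1000.3 and 833 CPM. Fn1, which encodes the matrix protein fibronectin, was seen on the Ly6c2/Ccr2 side alone, at 812, 663 and 197 CPM. S100a4, a calcium-binding protein, stood at 1782, 1701 and 1359 CPM there and at 409, 516 and 555 CPM on the other side, and Ms4a4c at 1082, 1171 and 1009 CPM against 123, 258 and 361 CPM. For comparison, microglia of the same libraries, taken as barcodes with at least 6 UMIs of P2ry12, Tmem119 and Sparc, held 13.8, 8.95 and 4.87 CPM of Plac8, at median depths of 3399, 3341 and 2842 UMIs. The source of these Plac8 UMIs in microglia was not tested.

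The promoters of the dividing genes are shown because PU.1, the factor that all monocytes depend on, binds purine-rich sites. The sequences are the 250 bases before the start from RefSeq on GRCm38.p6, read 5′ to 3′ on the gene's strand, with each match to GAGGAAG or, on the other strand, CTTCCTC in capitals. Of the 10 rule genes 8 had a promoter in the RefSeq table. A match stood before 2 of those 8 genes, Ly6c2 and Ace, and in 10.6% of all 32851 promoters of this length. The Ly6c2 window lies at chr15:75111972-75112221 on the minus strand, the Ace window at chr11:105967698-105967947 on the plus strand, and the Treml4 window at chr17:48264045-48264294 on the plus strand. Matches began 108 bases before the start in Ly6c2 (position -108) and at positions -218 and -89 in Ace. A second Ly6c2 start, whose window overlaps the one shown, had matches at -142 and -8, and a second Ace start and the Treml4 window held none. A match is a description of the letters and shows no binding.
Ly6c2: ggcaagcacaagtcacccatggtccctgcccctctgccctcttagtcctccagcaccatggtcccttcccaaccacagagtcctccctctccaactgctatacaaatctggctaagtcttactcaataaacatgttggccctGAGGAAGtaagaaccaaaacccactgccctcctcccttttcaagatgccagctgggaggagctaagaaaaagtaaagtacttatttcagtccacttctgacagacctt
Ace: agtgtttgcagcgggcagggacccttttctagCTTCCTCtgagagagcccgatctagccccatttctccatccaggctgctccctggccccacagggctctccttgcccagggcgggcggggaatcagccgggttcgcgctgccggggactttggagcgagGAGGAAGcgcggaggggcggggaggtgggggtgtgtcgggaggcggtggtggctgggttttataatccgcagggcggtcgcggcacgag
Treml4: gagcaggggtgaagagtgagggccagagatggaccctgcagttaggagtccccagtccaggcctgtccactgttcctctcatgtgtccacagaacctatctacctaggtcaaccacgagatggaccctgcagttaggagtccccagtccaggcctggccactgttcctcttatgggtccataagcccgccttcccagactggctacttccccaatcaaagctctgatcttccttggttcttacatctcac

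The sides differed in many genes that the rule did not use, and only genes past 2-fold in both WT libraries were counted. Differences are on the log2(CPM + 50) scale, which understates the change of low genes. Of 4425 genes with at least 20 UMIs over the members, 164 were over 2-fold higher on the Ly6c2/Ccr2 side in both WT libraries (3.71%) and 112 on the Ace/Treml4/Ear2 side (2.53%). Because the barcodes were divided by their own genes, these are descriptions with no test. In the deficient library, which the choice of these genes did not use, 129 of the 164 lay on the same side, 78 of them by over 2-fold. Of the 112, 96 did, 52 by over 2-fold. Rule genes were not taken out of these counts. Ly6c2, Ccr2, Fn1, S100a4 and Ms4a4c are among the 164, and Ace, Treml4 and Ear2 among the 112. All of these rule genes also passed 2-fold on the same side in the deficient library. For Ly6c2, Ccr2, Ace, Treml4 and Ear2 this largely follows from how barcodes were divided. Fn1, S100a4 and Ms4a4c were used to choose the members but not to divide them. Over all 4425 genes, 50.6% were higher on the Ly6c2/Ccr2 side in that library and 12.9% by over 2-fold, and 44.9% were higher on the other side and 8.23% by over 2-fold.

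On the Ly6c2/Ccr2 side the leading gene was F13a1, the A subunit of coagulation factor XIII. It stood at 1022, 781 and 329 CPM in WT 1, WT 2 and the deficient library, and no F13a1 UMI was seen on the other side of any library. With 3 counts as the limit of detection, it was at least 8.33-fold, 8.06-fold and 3.95-fold higher there. Chil3, a chitinase-like secreted protein of young monocytes, stood at 2543, 1594 and 1929 CPM against 123, 64.5 and 27.8 CPM, a difference of 3.91, 3.84 and 4.67. Thbs1, the matrix protein thrombospondin, stood at 452, 313 and 482 CPM against no UMI on the other side. All 22 Thbs1 UMIs of the deficient library lay in 1 barcode, so there Thbs1 marked a single cell of the side.

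Other leading genes of this side were Hp (haptoglobin, which binds free haemoglobin), the chemokine Ccl9, Wfdc17, the lectin Lgals1, the lectin receptor Clec4a2, Emb and S100a10. All 7 were over 2-fold higher on the Ly6c2/Ccr2 side in all 3 libraries. In the deficient library their differences ran from 1.10 in Hp to 2.75 in Emb. Hp stood at 40.9 and 32.3 CPM on the Ace/Treml4/Ear2 side of WT 1 and WT 2 and at 527 CPM on that of the deficient library. 2 chemokine genes turned over: Cxcl2 differed by 3.95 and 3.87 in WT 1 and WT 2 and by -4.01 in the deficient library, and Ccl3 by 2.43 and 2.75 against -1.38. A single barcode held 78 of the 82 Cxcl2 UMIs of the deficient library, and Ccl3 had 9 UMIs there, so neither reversal rests on more than a few cells.

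On the Ace/Treml4/Ear2 side, Eno3, the muscle form of the glycolytic enzyme enolase, stood at 777, 1323 and 499.5 CPM in WT 1, WT 2 and the deficient library and at 0, 7.36 and 0 CPM on the other side. Cd300e, an activating receptor of monocytes, stood at 368, 387 and 305 CPM, and Fabp4, a fatty acid carrier, at 899, 355 and 389 CPM. Neither had a UMI on the Ly6c2/Ccr2 side of any library. Cd300e was at least 38.5-fold, 35.1-fold and 4.64-fold higher against the limit of 3 counts, and Fabp4 at least 94.2-fold, 32.1-fold and 5.91-fold.

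Pglyrp1, which binds bacterial cell wall, stood at 1472, 1387 and 777 CPM on the Ace/Treml4/Ear2 side against 31.8, 51.5 and 0 CPM. Gngt2, a G protein subunit, stood at 2616, 3098 and 2692 CPM against 204, 236 and 307 CPM. The remaining leading genes were Fcgr4 (an activating IgG receptor), Itgal (the alpha chain of the integrin LFA-1), Tppp3, Rbpms, Cd300ld, Dusp16 and Pilra. Fcgr4, Itgal, Cd300ld, Dusp16 and Pilra kept a difference beyond 2-fold in the deficient library. Tppp3 did not: it differed by -2.85 and -3.53 in WT 1 and WT 2 and by 0.63 in the deficient library. Rbpms differed by -2.47, -2.48 and -0.64.

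**Figure D3:**
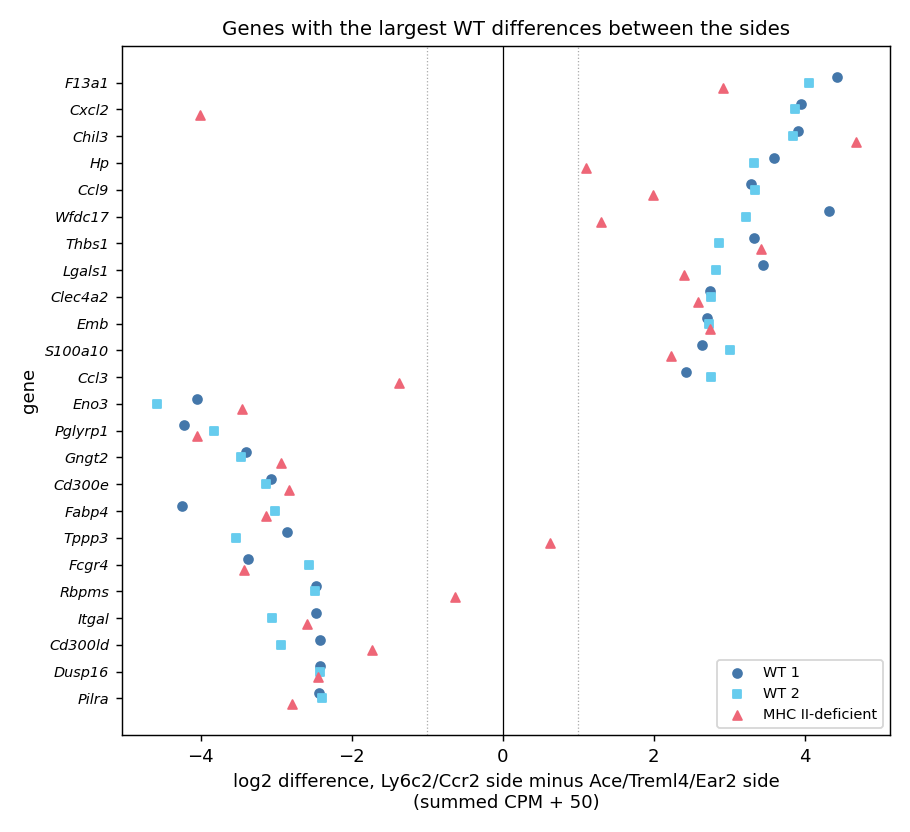
The x axis gives the log2 difference of CPM + 50 between the Ly6c2/Ccr2 side and the Ace/Treml4/Ear2 side for the 12 leading genes of each side, 1 marker per library, with dotted lines at 2-fold. The markers of the deficient library lie on the WT side of 0 for all of them but Cxcl2, Ccl3 and Tppp3.

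Lists of textbook markers followed the sides. Of 15 further classical markers with enough UMIs, 8 were over 2-fold higher on the Ly6c2/Ccr2 side in both WT libraries and none on the other. The list's median difference was 1.65, 1.33 and 0.91 in WT 1, WT 2 and the deficient library, beside 0.09, 0.04 and 0.05 over all genes. Of 19 measured non-classical markers, 15 were over 2-fold higher on the Ace/Treml4/Ear2 side in both WT libraries, with medians of -2.42, -2.33 and -2.32. These lists were written with earlier results of these data known, and they name the cells that the rule was built to find.

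Among other gene groups, 5 of 8 measured class II presentation genes, 5 of 20 inflammatory and phagocytic genes and 5 of 16 adhesion genes were over 2-fold higher on the Ly6c2/Ccr2 side in both WT libraries. Over all 4425 genes, 3.71% were over 2-fold higher on that side in both WT libraries and 2.53% on the other. The 5 adhesion genes include Ccr2, which divides the sides and so counts there by construction. The adhesion list held 3 genes with the opposite pattern: Itgal, Itgb1 and Spn. Of 20 type I interferon genes, 2 were higher on the first side and 1 on the second. Of 17 immediate early genes, which answer any stimulus within minutes, Fos and Ier3 were higher on the Ly6c2/Ccr2 side and none on the other.

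Most cell cycle transcripts lay on the Ly6c2/Ccr2 side, which also held most members and most of their UMIs. Members with at least 5 UMIs of 8 proliferation genes numbered 8 in WT 1, 3 in WT 2 and 0 in the deficient library, and every one of these 11 barcodes was on that side. They held 306 of the 314 such UMIs in WT 1 and 140 of 157 in WT 2. The summed level of the list was 911, 510 and 48.3 CPM over the members, in the same order.

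The label did not cover all members of the Ly6c2/Ccr2 side. A group of barcodes there carried at least 50 UMIs of Cd74, a chaperone of class II molecules: 7 of 41 in WT 1, 12 of 34 in WT 2 and 4 of 7 in the deficient library. This division was made after the values were seen. In these barcodes Cd74 stood at 42572, 40272 and 35073 CPM, against 382, 415 and 542 CPM in the others of the side. Ly6c2 stood at 316, 125 and 221 CPM in them against 2208, 1547 and 2653 CPM, and Chil3 at 232, 10.4 and 295 CPM against 2954, 2457 and 4332 CPM. Ccr2 was carried by both, at 970, 783 and 1547 CPM against 1267, 1200.1 and 812 CPM. They are called Cd74-high barcodes here and are given no cell type name.

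In WT, the Cd74-high barcodes held most class II chains of the members. For H2-Ab1, a beta chain of the class II molecule itself, their part was 852 of the 979 UMIs in the first WT library and 1446 of 1494 in the second. All members with at least 50 Cd74 UMIs, whatever their side, numbered 9 and 14 and held 966 and 1488. The Cd74-high barcodes of the Ly6c2/Ccr2 side also held Cd209a, a lectin of monocyte-derived dendritic cells, at 401 and 1535 CPM against 2 UMIs in the others of each library. The lectin Mgl2 stood at 970 and 668 CPM against no UMI. Of the Cd209a UMIs, 2 barcodes held 19 of 21 in WT 1 and 6 held 137 of 149 in WT 2. Klrd1, better known from natural killer cells, stood at 316 and 731 CPM against no UMI. It was seen in 2 barcodes of WT 1, 1 of which held 13 of the 15 UMIs, and in 7 of WT 2, with 29 of 70 in 1.

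In the deficient library, H2-Aa, H2-Ab1 and H2-Eb1 were not listed, and Cd209a and Mgl2 had no UMI in a member. H2-DMb1, which loads peptides onto class II, stood at 1455, 1785 and 1584 CPM in the Cd74-high barcodes of the 3 libraries in the same order, and Klrd1 had 7 UMIs in 1 of the 4 such barcodes of the deficient library. The 4 barcodes also carried Apoe, the lipid carrier apolipoprotein E, at 8658 CPM, where the WT libraries had 2235 and 2913 CPM, and C1qb, a chain of complement C1q, at 3205 CPM beside 1413 and 856 CPM. Single barcodes carried much of this: 1 of the 4 held 225 of their 235 Apoe UMIs, and 1 held 49 of their 87 C1qb UMIs. Outside the Cd74-high barcodes, the Ly6c2/Ccr2 side of the deficient library had 3 barcodes. Without all 9, 14 and 4 members with at least 50 Cd74 UMIs, the classical share was 87.2%, 78.6% and 18.8%.

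**Figure D4:**
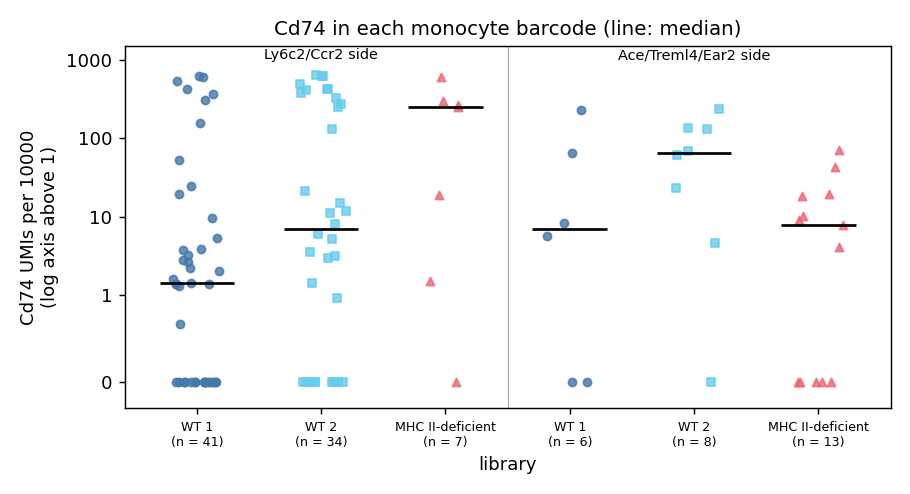
Each point is 1 monocyte barcode and the y axis its Cd74 UMIs per 10000 (log above 1), by side and library, with a line at the median. On the Ly6c2/Ccr2 side most WT 1 barcodes lie near 0 and a separate set lies above 100, which holds 4 of the 7 barcodes of the deficient library.

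Transcripts of other lineages were found in all 3 libraries. The T cell list summed to 2.90, 3.25 and 0 CPM over the members. Of its 7 genes only 1 was listed in any library and 0 in all 3, so an absence of T cell transcripts was not measured. Of 10 dendritic, 6 B and 7 natural killer cell genes, 4, 3 and 1 were listed in all 3 libraries. The neutrophil list summed to 795, 484 and 193 CPM, and the microglial list to 806, 870 and 796 CPM. The dendritic cell list summed to 142, 561 and 36.2 CPM, the B cell list, mainly Ighm, to 458, 211 and 157 CPM, and the natural killer cell list to 43.5, 227 and 84.4 CPM. With Ighm left out, 9, 13 and 1 members held at least 2 UMIs of dendritic, B, T or natural killer cell markers.

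Border macrophages, which live in the meninges and around vessels, share genes with monocytes. Their list of 8 markers, of which 5 were listed in all 3 libraries, summed to 119, 114 and 326 CPM over the members. Lyve1 and Cd163 had no UMI in the members of any library, and Pf4 and Cbr2 none in those of the deficient one. At least 5 such UMIs were held by 3, 1 and 2 members. Of 3 list genes tested between the genotypes as below, Ms4a7, a tetraspanning membrane protein, rose by 3.32 on the log2 scale (SE 0.64, adjusted p = 0.00124, edgeR), from 24.5 and 10.8 to 187 TMM-scaled CPM. It rose by 4.0 on the Ly6c2/Ccr2 side alone (adjusted p = 1.37e-05, edgeR), and 11 of its 15 UMIs in the deficient library were in 1 barcode. Without the members with at least 5 border macrophage UMIs, 59 genes were called higher and 84 lower. C1qb, which rose by 1.46 over all members (adjusted p = 0.000342, edgeR), then fell by 1.74 (adjusted p = 0.0284, edgeR), and Apoe went from 1.31 (adjusted p = 0.000727, edgeR) to 0.78 (adjusted p = 0.101, edgeR).

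UMIs summed over all members of each library were then compared between the genotypes with edgeR's quasi-likelihood test. The adjusted p-values, by the Benjamini-Hochberg method, rest on the spread of the WT pair with 1 residual degree of freedom, and take the same spread for the deficient group. Of 4694 genes tested, 46 were called higher in the deficient library (0.98%) and 66 lower (1.41%), together 2.39%. DESeq2 called 8 and 17, and limma voom called Fcgr4, Ear2 and Hspa1a alone. Of the genes named below as called by edgeR, DESeq2 did not call Cd244, Pilra, Itgal, Pla2g7, Gngt2, Cited2, Stmn1, Nfil3, Cd177, Cebpb, Nr4a1 or Selplg, and it gave no adjusted p for Camk2d, Fabp4, Mgl2, Ms4a7 or C3ar1. Of the 112 genes, 5 had been used by the rule (Fn1, Ear2, Treml4, S100a8 and S100a9) and are not counted as results. The sums mix both sides, whose proportions differed, so values within a side are given beside them. The Ly6c2/Ccr2 side is itself a mix, with 7 of 41, 12 of 34 and 4 of 7 barcodes Cd74-high, so values within it do not hold the mix constant. Within the Ly6c2/Ccr2 side, 21 of 4342 genes were called higher (0.484%) and 59 lower (1.36%), together 1.84%. On the other side alone, 673 genes could be tested, and edgeR called 0 of them, with 62 at an unadjusted p under 0.05.

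Of the 44 genes not used by the rule that were higher in the deficient library, 20 were over 2-fold higher on the Ace/Treml4/Ear2 side in both WT libraries and 2 on the other. Within the Ly6c2/Ccr2 side, 40 of the 44 could be tested, all 40 were higher in the deficient library and 12 were called. On the Ace/Treml4/Ear2 side, 21 of 30 tested were higher. The barcodes of a side are part of the sums that gave the calls, so a shared direction is largely built in. Fcgr4 stood at 45.9, 61.1 and 597 TMM-scaled CPM in WT 1, WT 2 and the deficient library and rose by 3.48 on the log2 scale (SE 0.35, adjusted p = 6.12e-08, edgeR). On the Ace/Treml4/Ear2 side it stood at 531, 290 and 1193 CPM, a difference of 1.52 that did not pass there (adjusted p = 0.530, edgeR).

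Itgal stood at 113, 111 and 485 TMM-scaled CPM and rose by 2.10 (SE 0.34, adjusted p = 0.000120, edgeR). Pilra, an inhibitory receptor, rose by 2.39 (SE 0.37, adjusted p = 0.000104, edgeR) from 64.3 and 82.6 to 386 TMM-scaled CPM. On the Ly6c2/Ccr2 side alone these genes differed by 0.95 and 0.77, and on the other side by 0.53 and 0.86, none of which passed. Pla2g7, Camk2d and Fabp4 rose by 2.07, 2.01 and 1.82 over all members, and none of them passed on either side where it could be tested. The calls for these 5 genes were thus not made within a side. Camk2d and Fabp4 also did not pass without members holding UMIs of other lineages (adjusted p = 0.145 and 0.0625, edgeR).

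Of the leading genes, 2 rose within the Ly6c2/Ccr2 side as well. Hspa1a, an inducible heat shock protein, stood at 141, 147 and 796 TMM-scaled CPM and rose by 2.46 (SE 0.29, adjusted p = 1.26e-06, edgeR), and by 3.25 on that side alone (adjusted p = 2.43e-18, edgeR). Of its 64 UMIs in the deficient library, 29 were in 1 barcode, and on the Ace/Treml4/Ear2 side it differed by -0.20. Without members holding at least 2 UMIs of other lineages, Hspa1a differed by 1.06 over the members and did not pass (adjusted p = 0.281, edgeR). Cd244, a receptor of the SLAM family, stood at 42.9, 53.9 and 274 TMM-scaled CPM and rose by 2.5 (SE 0.43, adjusted p = 0.000305, edgeR), and by 3.03 on the Ly6c2/Ccr2 side (adjusted p = 0.000131, edgeR). Its 22 UMIs lay in 11 barcodes. DESeq2 did not call Cd244 (adjusted p = 0.146).

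Of the 63 genes not used by the rule that were lower, all 63 were lower within the Ly6c2/Ccr2 side and 42 were called there. On the Ace/Treml4/Ear2 side, 25 of 27 tested were lower. Each side is part of the sums that gave the calls, so shared direction is largely built in. Medians over all genes tested were -0.13 on the Ly6c2/Ccr2 side and -0.07 on the other. Of the 63, 41 were called lower in microglia, where 7.02% of genes tested were lower and 1.63% higher. Jund, a subunit of the transcription factor AP-1, stood at 456, 456 and 24.9 TMM-scaled CPM and fell by 4.17 on the log2 scale (SE 0.58, adjusted p = 2.15e-05, edgeR). Lamp1, a main protein of the lysosomal membrane, stood at 1268, 909 and 99.5 TMM-scaled CPM and fell by 3.45 (SE 0.42, adjusted p = 1.29e-06, edgeR). In both, the deficient library lay far below either WT library.

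Jund and Lamp1 were lower in the deficient library on both sides, in microglia and in border macrophages. On the Ly6c2/Ccr2 side Jund stood at 382, 346 and 21.9 CPM, and on the Ace/Treml4/Ear2 side at 572, 1065 and 27.8 CPM. Lamp1 stood at 1276, 817 and 65.8 CPM and at 450, 936 and 139 CPM. In microglia Jund fell by 4.18 and Lamp1 fell by 3.09 on the log2 scale, and the difference between the classes, -0.05 and -0.37, did not pass. Border macrophages, 7 barcodes in the deficient library, held 3353, 2186 and 135 CPM of Jund and 858, 1413 and 135 CPM of Lamp1, where 135 CPM is 3 UMIs. Neutrophils, of which the deficient library had 18, held 221, 171 and 122 CPM of Jund and 232, 243 and 60.8 CPM of Lamp1, where 60.8 CPM is 3 UMIs, so these few UMIs settle no difference in that class. Whether the genotype or the making of a single library gave these drops cannot be told apart.

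Klf2, a transcription factor that restrains monocyte activation, stood at 597, 521 and 62.2 TMM-scaled CPM and fell by 3.16 (SE 0.46, adjusted p = 5.49e-05, edgeR). Cebpb, a transcription factor needed for non-classical monocyte survival, fell by 2.84 (SE 0.52, adjusted p = 0.000849, edgeR), from 407 and 309 to 49.8 TMM-scaled CPM. Pnrc1, a nuclear receptor coregulator, fell by 3.52 (SE 0.54, adjusted p = 9.94e-05, edgeR). No Klf2 UMI was seen on the Ly6c2/Ccr2 side of the deficient library, where WT 1 and WT 2 held 516 and 342 CPM. All 3 were lower on both sides. In microglia Klf2 differed by -5.93, Cebpb by -3.04 and Pnrc1 by -3.19.

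A further 5 genes that were lower over all members were also called lower on the Ly6c2/Ccr2 side alone. Nr4a2, an orphan nuclear receptor of the early response, stood at 315, 553 and 24.9 TMM-scaled CPM and fell by 4.09 (SE 0.65, adjusted p = 0.000120, edgeR). Nfil3, a basic leucine zipper transcription factor, fell by 4.05 and Cd177, a surface protein best known from neutrophils, by 3.91, each with 1 UMI left among the 21 members (DESeq2 adjusted p = 0.289 and 0.329). Cited2, a coregulator of CBP and p300, stood at 263 and 230 TMM-scaled CPM in WT 1 and WT 2 and had no UMI in the deficient library, at least 6.32-fold lower against the limit of 3 counts (adjusted p = 9.97e-05, edgeR, and 0.0789, DESeq2). Mgl2 also had no UMI, at least 4.71-fold lower (adjusted p = 0.000909, edgeR), and its 46 and 64 WT UMIs all lay in 5 Cd74-high barcodes of each library.

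Stmn1, a microtubule regulator of dividing cells, fell by 4.08 (SE 0.79, adjusted p = 0.00134, edgeR), from 257 and 180 to 12.4 TMM-scaled CPM. Its WT UMIs lay in 8 and 7 barcodes. Stmn1 did not pass with DESeq2 (adjusted p = 0.285), with limma voom (adjusted p = 0.809) or with edgeR without members holding UMIs of other lineages (adjusted p = 0.0908). It was the only one of 5 proliferation genes tested that passed, while Pclaf, Ube2c and Birc5 stood at 144, 98.0 and 88.8 TMM-scaled CPM in WT 1, at 75.5, 101 and 46.7 in WT 2 and at 24.9, 12.4 and 0 in the deficient library. Members with at least 5 proliferation UMIs made up 16.7% and 6.82% of the WT libraries, and 0 of 21 members allows a share of up to 14.3%, which lies between them. On the Ly6c2/Ccr2 side, which held all of them, they made up 19.5% of 41 and 8.82% of 34 barcodes, and 0 of 7 allows up to 42.9%, so a difference was not detectable there.

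**Figure D5:**
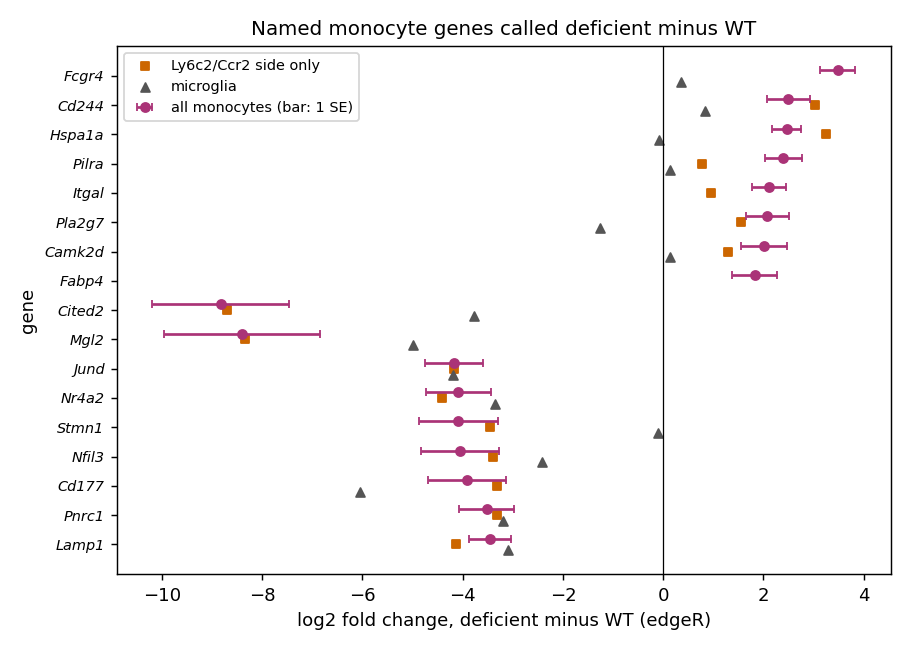
Log2 fold changes, deficient minus WT, are given for the named genes called over all monocytes (circles, with bars of 1 SE), on the Ly6c2/Ccr2 side alone (squares) and in microglia (triangles), where a gene could be tested. Fcgr4, Pilra and Itgal are raised over all monocytes by more than on the Ly6c2/Ccr2 side or in microglia where shown, while Jund, Pnrc1 and Lamp1 lie 3 or more below 0 in all of them; Cited2 and Mgl2 had no UMI in the deficient library, so their plotted size is not a measured fold.

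The list counts that follow stand beside 0.98% of all genes tested called higher and 1.41% lower. By group, immediate early genes moved most often. Of 17 tested, 7 fell and 1, Hspa1a, rose, and the median was -1.30, beside -0.06 over all genes tested. Fos, a subunit of AP-1, stood at 2499, 2116 and 784 TMM-scaled CPM and fell by 1.56 (SE 0.28, adjusted p = 0.000611, edgeR), and Junb fell by 1.30 (SE 0.27, adjusted p = 0.00304, edgeR). Nfkbia, the inhibitor of NF-kB, did not pass (1133, 2285 and 958 TMM-scaled CPM), nor did Egr2. On the Ly6c2/Ccr2 side alone Fos fell by 1.81 and Junb by 1.10, and both passed.

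Non-classical marker genes rose in 7 of 20 and fell in 2, with a median of 1.23. Gngt2 rose by 1.45 (SE 0.26, adjusted p = 0.000727, edgeR), from 395 and 650 to 1418 TMM-scaled CPM, and differed by 0.32 on the Ly6c2/Ccr2 side, which did not pass. Nr4a1, on which non-classical monocytes depend, went the other way: it stood at 818, 870 and 286 TMM-scaled CPM and fell by 1.56 (SE 0.32, adjusted p = 0.00261, edgeR). It stood at 777, 718 and 65.8 CPM on the Ly6c2/Ccr2 side and at 695, 1258 and 527 CPM on the other. Clec4a3 stood at 377, 525 and 834 TMM-scaled CPM and did not pass (adjusted p = 0.0815, edgeR). DESeq2 called neither Gngt2 (adjusted p = 0.0521) nor Nr4a1 (adjusted p = 0.0940).

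Classical marker genes fell in 2 of 14 and rose in none, with a median of -0.49. F13a1 stood at 983, 762 and 187 TMM-scaled CPM and fell by 2.22 (SE 0.36, adjusted p = 0.000137, edgeR), and by 1.61 on the Ly6c2/Ccr2 side (adjusted p = 0.00253, edgeR). Within that side it stood at 232, 83.5 and 73.7 CPM in Cd74-high barcodes and at 1162, 1160 and 704 CPM in the others. Those others were 3 barcodes with 13 F13a1 UMIs in the deficient library. The part of this mix in the fall on that side was not tested. Lyz2, lysozyme and the most abundant gene of the list, stood at 39902, 35972 and 22418 TMM-scaled CPM and did not pass. Chil3, at 2456, 1563 and 1107, did not pass either.

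Other groups changed in few members, beside 0.98% of all genes tested called higher and 1.41% lower. Of 20 inflammatory and phagocytic genes, 1 rose and 1 fell. Il1b, which encodes interleukin 1 beta, stood at 2685, 4341 and 4031 TMM-scaled CPM, and Tyrobp, an adaptor of activating receptors, at 4076, 3974 and 4317. C3ar1, the receptor for complement C3a, rose by 2.64 (SE 0.69, adjusted p = 0.0282, edgeR) from 18.4 and 25.2 to 137 TMM-scaled CPM. A single barcode held 10 of the 11 C3ar1 UMIs of the deficient library. Of 20 type I interferon genes, 1 rose and none fell, and Ifitm3, which blocks virus entry, stood at 5157, 5031 and 5897 TMM-scaled CPM.

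Of 15 adhesion and migration genes, Itgal rose and Selplg, a surface ligand that lets leukocytes roll along vessel walls, fell by 1.45 (SE 0.36, adjusted p = 0.0172, edgeR) from 490 and 600.1 to 199 TMM-scaled CPM. Of 5 class II presentation genes tested, none passed: Cd74 stood at 8011, 15146 and 12739 TMM-scaled CPM (adjusted p = 0.906, edgeR), with H2-DMa and H2-DMb1 at 522 and 647 TMM-scaled CPM in the deficient library. Of 17 transcription factors, 1 rose and 4 fell. Spi1, which encodes PU.1, stood at 536, 596 and 883 TMM-scaled CPM and Zeb2 at 686, 600.1 and 647, and neither passed.

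A last list held genes that an earlier account of these libraries had called in microglia, so it is no independent choice. Of its 13 members tested in monocytes, Klf2, Jund, Cebpb and Lamp1 fell, none rose and 9 did not pass. Rnaset2b, Tagap, Dapk3 and Timp2 had no UMI in the 21 members, at WT levels near the limit of 3 counts. Cebpa stood at 129, 86.2 and 24.9 TMM-scaled CPM and Rnaset2a at 116, 111 and 87.1. Ddit4, Oser1 and Gstp1 differed by 1.90, 0.94 and 1.05 without passing. Ccr6, a chemokine receptor, had no UMI in monocytes of WT 1 or the deficient library and stood at 3.25 CPM in WT 2, while microglia held 151 CPM in the deficient library. With a limit of 36.2 CPM in the 21 members, a rise of Ccr6 to the microglial level would have been seen.

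Whether a gene's difference between the genotypes was itself different in monocytes and microglia was tested in 1 model over both classes. It was called for 57 genes upward and 23 downward (1.7% of 4694). Fcgr4, Hspa1a, Pilra, Pla2g7 and Camk2d differed more in monocytes by 3.11, 2.54, 2.25, 3.35 and 1.88 on the log2 scale, and Stmn1 by -4.08. Among the genes named for their lists, it was also called for Cd74, Chil3, Il1b, Gngt2, C3ar1, Ms4a7, F13a1 and Selplg. Cd74, Chil3 and Il1b did not pass in monocytes and differed by -2.67, -5.20 and -1.35 in microglia. Microglia held 194, 165 and 2 Chil3 UMIs in WT 1, WT 2 and the deficient library. The last is under the limit of 3 counts, so the size for Chil3 is no measured fold. Neutrophils held 4370, 5600 and 2471 CPM of Chil3, and their part in the microglial values was not tested. Of the genes named above as lower in monocytes, Jund, Lamp1, Pnrc1, Klf2, Cebpb, Nr4a2, Nfil3 and Cd177 did not pass this test. With microglial sums thinned to the monocyte totals, 2 genes were called, Hspa1a among them.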

How the data were processed

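Each library's deposited table holds unnormalized UMI counts by gene and barcode. Sorting for CD11b and CD45 and the 10x Genomics 3' droplet kit are per the labels' protocols. The submitters' processing notes name Cell Ranger 3.0, Seurat 2.2 and mm10, and the authors' own filters are not stated in the sources used. The barcodes with at least 500 UMIs numbered 4340, 4667 and 2257, with median depths of 3384.5, 3338 and 2824 UMIs.

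Members, sides and lists were chosen with earlier results of these data known. UMIs were summed per library and class, since barcodes are not replicates. Sums were tested with edgeR 4.0.16 (filterByExpr, TMM, quasi-likelihood) in R 4.3.3, adjusted over all genes tested, with DESeq2 1.42.0 and limma 3.58.1 (voom) as alternatives. On counts simulated for the deficient minus WT comparison over 4694 genes, changes of -2, -1, 1 and 2 on the log2 scale were called in 49.2%, 10.4%, 28% and 97.6% of genes, with 4.54% of calls false. Drops were thus found less often than rises in the simulation. It used the same dispersion (0.0191) for every gene and WT means, with no change in the mix of sides and no UMIs gathered in single barcodes. Its rate of false calls therefore does not carry over to the data. Microglia, the comparison class, held at least 6 UMIs of P2ry12, Tmem119 and Sparc.

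Named were the rule genes; between the sides, the 12 genes per direction with the largest smaller WT difference; among called genes averaging 100 CPM or more, the 10 largest changes per direction; and of each list its 3 most abundant members, the largest change, and every member of the list of genes called earlier in microglia. Gm, Rik and sex-linked genes were left out of the rankings. Spn, Itgb1, Ier3, Apoe, C1qb, Cd209a, Klrd1 and the class II chains were named after their values were seen. Promoters came from a RefSeq table on GRCm38.p6. No doublet caller was run, so doublets can remain. Alternatives varied depth, the rule, normalization, filters, tools, sides and single WT libraries. Replicates are separate mice per the series' design, and the intervals and limits cover counting error only.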

Additional observations from a re-analysis of the deposited data

Results flagged for a closer look

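A different response to the genotype in monocytes and microglia was called by an interaction term in edgeR for 80 genes. It was called for Fcgr4, with a class difference of 3.11 on the log2 scale (adjusted p = 3.06e-06, edgeR), for Hspa1a with 2.54 and for Pilra with 2.25. It was also called for Pla2g7 with 3.35, for Camk2d with 1.88 and for Stmn1 with -4.08. Of the genes named for their lists, it was called for Cd74 with 2.86, Il1b with 1.57, Gngt2 with 1.24, C3ar1 with 2.95 and Selplg with -1.51. Ms4a7 with 8.67, F13a1 with 5.95 and Chil3 with 4.30 were called as well. Microglia of the deficient library held 1, 0 and 2 UMIs of these genes, so the sizes are no measured folds. Fcgr4, Pilra, Pla2g7 and Camk2d did not pass within either monocyte side where they were tested, and the side mix differed between the genotypes (35.0% on the Ly6c2/Ccr2 side in the deficient library). With microglial sums thinned to the monocyte totals, the class difference was called for Apoe and Hspa1a alone, and 225 of the 472 Apoe UMIs in monocytes of the deficient library were in 1 barcode.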

How the results depend on the processing

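The classical share stayed lower in the deficient library under every setting run. Without members holding at least 2 UMIs of other lineages, monocytes made up 0.392% and 0.364% of WT 1 and WT 2, and the classical share of WT 2 was 60%. The WT 2 monocyte share was 0.610% after thinning, and, in settings chosen after seeing the data, 0.664% with other lineages out but Ighm not counted and 0.643% without members with at least 50 Cd74 UMIs. A pseudocount of 10 CPM gave 755 genes over 2-fold between the sides, against 276 with 50 CPM. Against 112 genes called between the genotypes, DESeq2 called 25 (128 at an unadjusted p under 0.05), limma voom 3 (336), edgeR on the Ace/Treml4/Ear2 side alone 0 (62), and edgeR without members with at least 50 Cd74 UMIs 198. Against 80 genes with a class difference, a filter of 20 UMIs gave 32 and thinned microglia 2. The cause of these moves was not tested. Hspa1a and Fabp4 turned to -0.20 and -0.69 on the Ace/Treml4/Ear2 side, and Rnaset2a to 0.33 without other lineages, none past the threshold. Without either WT library, all 107 called genes not used by the rule kept their direction. They had been called on these same libraries, so this sign check could hardly come out otherwise and adds no support. No paired analysis was possible because the groups share only 1 replicate number, and the deficient group has 1 library. The depth of 82899 UMIs in 21 members limits every statement on genes under 36.2 CPM.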
